A study of Arabidopsis thaliana with 8 samples.

Results

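The WRKY transcription factor family was followed through 43 loci chosen from a locus table by their gene identifiers, out of 28642 loci in all. They were chosen with earlier results of these data known. The loci were described by the group to which the standard classification assigns each WRKY number, with 6 members in group I, 3 in IIa, 6 in IIb, 9 in IIc, 5 in IId, 5 in IIe and 9 in III. RNA was taken from entire seedlings of Arabidopsis thaliana (strain Landsberg erecta), raised on GM medium for 14 days at 22 °C and then exposed to 0.1 µM flg22. The 4 groups were homozygous smn2 seedlings at 4 h, homozygous smn2 seedlings at 0 h, wild-type (WT) seedlings at 4 h and WT seedlings at 0 h, with 2 libraries each. The replicates carry the numbers 910 and 918, and the labels call them biological. There was no mock-treated group at 4 h among these libraries, so flg22, handling and time of day cannot be told apart in a 4 h change. SMN2 is known as HEN2, a helicase that feeds RNA to the nuclear exosome, an RNA-degrading complex. The question put to the libraries was how transcript levels after flg22, a peptide of bacterial flagellin, compare between smn2 and WT.

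WRKY factors are plant DNA-binding proteins named after a short amino acid motif that contacts DNA beside a zinc finger. They bind the W-box, a promoter element found before many defence genes and before many WRKY genes themselves, and family members are known to regulate one another. In Arabidopsis seedlings the receptor FLS2 perceives flg22 and activates MAP kinase cascades, which phosphorylate some WRKY factors and lead to the transcription of others. Group I proteins carry a pair of WRKY domains, group II proteins a single one, and group III proteins a single one with a different zinc finger. VQ proteins bind several WRKY factors as partners.

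The 300 bases before the annotated gene start are printed for 5 members: WRKY33 and WRKY30, which hold the most W-boxes in the family, WRKY41 and WRKY29, which are among the members with the largest 4 h changes, and WRKY54, which differed between genotypes and holds none. The sequences were read from the RefSeq genome TAIR10.1, which is the accession Columbia and not Landsberg erecta. They run 5′ to 3′ on the strand of the gene, and no other annotated locus lies in these windows. Capitals mark the W-box, searched as TTGACC and TTGACT on both strands, so that a match on the opposite strand reads GGTCAA or AGTCAA.
WRKY33, chr2:16107935-16108234 on the plus strand: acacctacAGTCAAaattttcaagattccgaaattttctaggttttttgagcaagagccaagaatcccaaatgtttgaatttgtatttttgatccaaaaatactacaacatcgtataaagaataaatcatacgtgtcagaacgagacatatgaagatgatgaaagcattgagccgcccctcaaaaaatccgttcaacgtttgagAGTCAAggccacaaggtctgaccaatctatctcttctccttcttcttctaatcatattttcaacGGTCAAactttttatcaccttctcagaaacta
WRKY30, chr5:8154711-8155010 on the minus strand: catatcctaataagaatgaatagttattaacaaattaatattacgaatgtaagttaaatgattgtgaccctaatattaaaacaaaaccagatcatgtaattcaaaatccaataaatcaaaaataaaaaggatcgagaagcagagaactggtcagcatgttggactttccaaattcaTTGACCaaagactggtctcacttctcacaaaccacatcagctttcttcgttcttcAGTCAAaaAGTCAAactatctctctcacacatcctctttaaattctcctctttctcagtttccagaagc
WRKY41, chr4:6758798-6759097 on the plus strand: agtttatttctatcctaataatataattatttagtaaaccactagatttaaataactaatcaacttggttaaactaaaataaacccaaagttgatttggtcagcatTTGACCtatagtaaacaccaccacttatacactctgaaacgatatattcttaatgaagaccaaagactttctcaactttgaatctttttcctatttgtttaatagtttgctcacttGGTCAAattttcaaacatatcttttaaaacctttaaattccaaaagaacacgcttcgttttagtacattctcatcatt
WRKY29, chr4:12291332-12291631 on the plus strand: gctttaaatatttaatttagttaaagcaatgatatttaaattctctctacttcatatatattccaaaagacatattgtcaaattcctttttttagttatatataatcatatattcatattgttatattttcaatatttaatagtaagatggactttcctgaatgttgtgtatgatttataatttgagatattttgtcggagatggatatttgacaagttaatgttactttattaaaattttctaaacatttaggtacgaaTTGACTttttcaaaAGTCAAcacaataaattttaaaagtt
WRKY54, chr2:17002529-17002828 on the minus strand: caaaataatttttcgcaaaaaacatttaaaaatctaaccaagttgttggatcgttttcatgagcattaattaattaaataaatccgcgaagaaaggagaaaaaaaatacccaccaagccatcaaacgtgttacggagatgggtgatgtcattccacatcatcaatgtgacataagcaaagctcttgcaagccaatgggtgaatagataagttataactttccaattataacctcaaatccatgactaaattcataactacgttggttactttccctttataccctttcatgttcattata
At least 1 W-box lay in the windows of 19 of the 43 members, or 44.2%, against 32.3% of 27443 windows of the same length before all genes. At least 2 lay before 9 members, or 20.9%, against 7.91% of all windows. The shorter core TTGAC, which is part of both words, was found before 28 members, or 65.1%, against 50.4% of all windows. WRKY33 and WRKY30 each held 3 matches. WRKY40 and WRKY70 had the core and no full W-box in the window, and WRKY57, like WRKY54, had neither. A match is a run of letters in the reference and not a measured binding site, and these shares were not tested. Gene start and end in the counted locus table equal those of the reference for 1 of the 43 members. The windows use the reference starts, and other starts were not tried. The windows of WRKY7, WRKY25, WRKY26, WRKY45 and WRKY61 reach into another annotated locus.

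**Figure D1:**
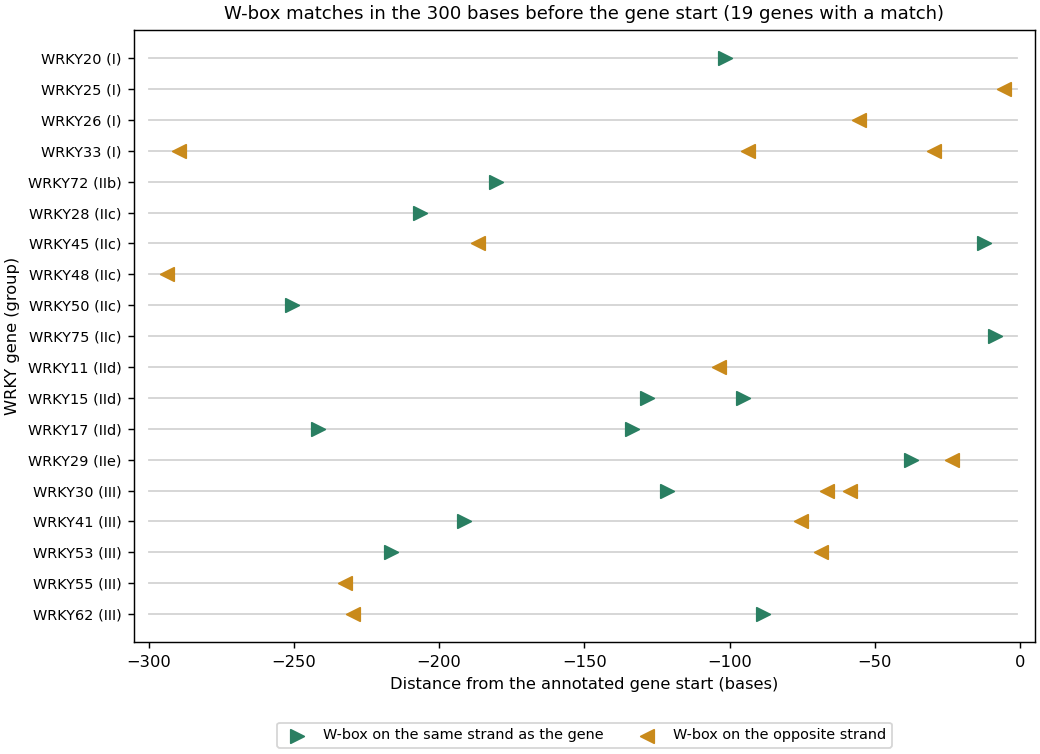
Positions of W-box matches relative to the annotated gene start, in bases, for the 19 WRKY genes that hold at least 1; each grey line is a window of 300 bases and each triangle 1 match, pointing right on the strand of the gene and left on the opposite strand. WRKY33 and WRKY30 have 3 matches each, and the matches of different genes lie at different distances.

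The libraries held 6856882 to 15791296 gene reads. On these unscaled totals 3 counts, the upper limit that a count of 0 allows, amount to 0.19 to 0.438 per 1000000 gene reads. CPM values of genes below are counts per 1000000 gene reads on totals scaled between libraries (TMM). Those totals were 6153714 to 18625042, so the limit differs on that scale. Ribosomal loci took 26.7% to 35.8% of these reads for replicate 910 and 40.3% to 44.4% for replicate 918. HEN2, the gene mutated in smn2, had 12 and 15.1 CPM in smn2 seedlings at 4 h, 10.6 and 9.71 CPM in smn2 seedlings at 0 h, 55.7 and 50 CPM in WT seedlings at 4 h and 34.7 and 32.0 CPM in WT seedlings at 0 h. All 4 smn2 libraries were below all 4 WT libraries, and the log2 difference, smn2 over WT, was -1.97 ± 0.20 (SE) at 4 h (adjusted p = 0.00481) and -1.71 ± 0.20 at 0 h (0.00679). Of 5 markers of green tissue and 6 of root, 5 and at least 5 had reads in every library, so both parts of a seedling were present. The summed level of the green markers was 3800 and 6560 CPM in smn2 at 4 h against 9700 and 12200 CPM in smn2 at 0 h, and 3850 and 7990 CPM in WT at 4 h against 10300 and 12400 CPM in WT at 0 h. Root markers summed to 241 and 332 CPM in smn2 at 4 h, 199 and 206 CPM in smn2 at 0 h, 263 and 272 CPM in WT seedlings at 4 h and 252 and 346 CPM in WT at 0 h. In smn2 the higher root sum at 4 h came from the marker AT1G78000, with a mean of 203 CPM at 4 h and 79.7 CPM at 0 h. The means of all other root markers in smn2 were lower at 4 h than at 0 h, with PRP3 at 10.1 against 29.8 CPM. The part of these marker changes in the 4 h changes below was not tested, and in bulk seedlings fewer cells of a type and less RNA per cell cannot be told apart.

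After 4 h of flg22 more of the chosen WRKY genes rose than fell in both genotypes. They were chosen with earlier results of these data known, so their counts do not stand for the whole family. Among 13 other tested loci with a WRKY symbol, 2 rose and 0 fell in smn2. In WT 2 of those 13 rose and 1 fell. A low-count filter, which asks for about 1.09 CPM in at least 2 libraries, kept 41 members and left out WRKY42, at 0.152 to 1.05 CPM, and WRKY55, at 0.0537 to 0.839 CPM. In smn2, 27 of the 41 rose at an adjusted p under 0.05 (edgeR, and 27 with DESeq2) and none fell, in either tool or at an unadjusted p under 0.05, beside 12.6% of all 19649 tested loci that rose and 8.88% that fell. In WT, 19 rose and 1, WRKY70, fell (17 and 1 with DESeq2), beside 10.1% of all loci that rose and 6.56% that fell. The median log2 change of the 41 was 1.71 in smn2 and 1.06 in WT, against -0.04 in smn2 and -0.01 in WT over all loci. WRKY30, WRKY41 and WRKY71 passed the filter through their 4 h libraries alone, so their counts among the risen members follow in part from the filter. The 19 members that rose in WT also rose in smn2. The 2 changes are measured against separate 0 h libraries, but 1 model with a shared estimate of the spread made both sets of calls. The share of all loci that rose in both genotypes was not counted, so this overlap has no background beside it. A further 8 (WRKY8, WRKY25, WRKY26, WRKY31, WRKY47, WRKY53, WRKY54 and WRKY71) passed the test in smn2 and not in WT, but the difference between the changes passed for none of them. Apart from WRKY70, the remaining 13 tested members passed in neither genotype. The replicate numbers mark separate sequencing runs, and within each run the change had the sign of the pooled one for 27 of 27 called members in smn2 and 20 of 20 in WT. The 4 h and 0 h libraries of the called members do not overlap, which already fixes that sign. As the same libraries made the calls, these counts are no separate support for them.

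**Figure D2:**
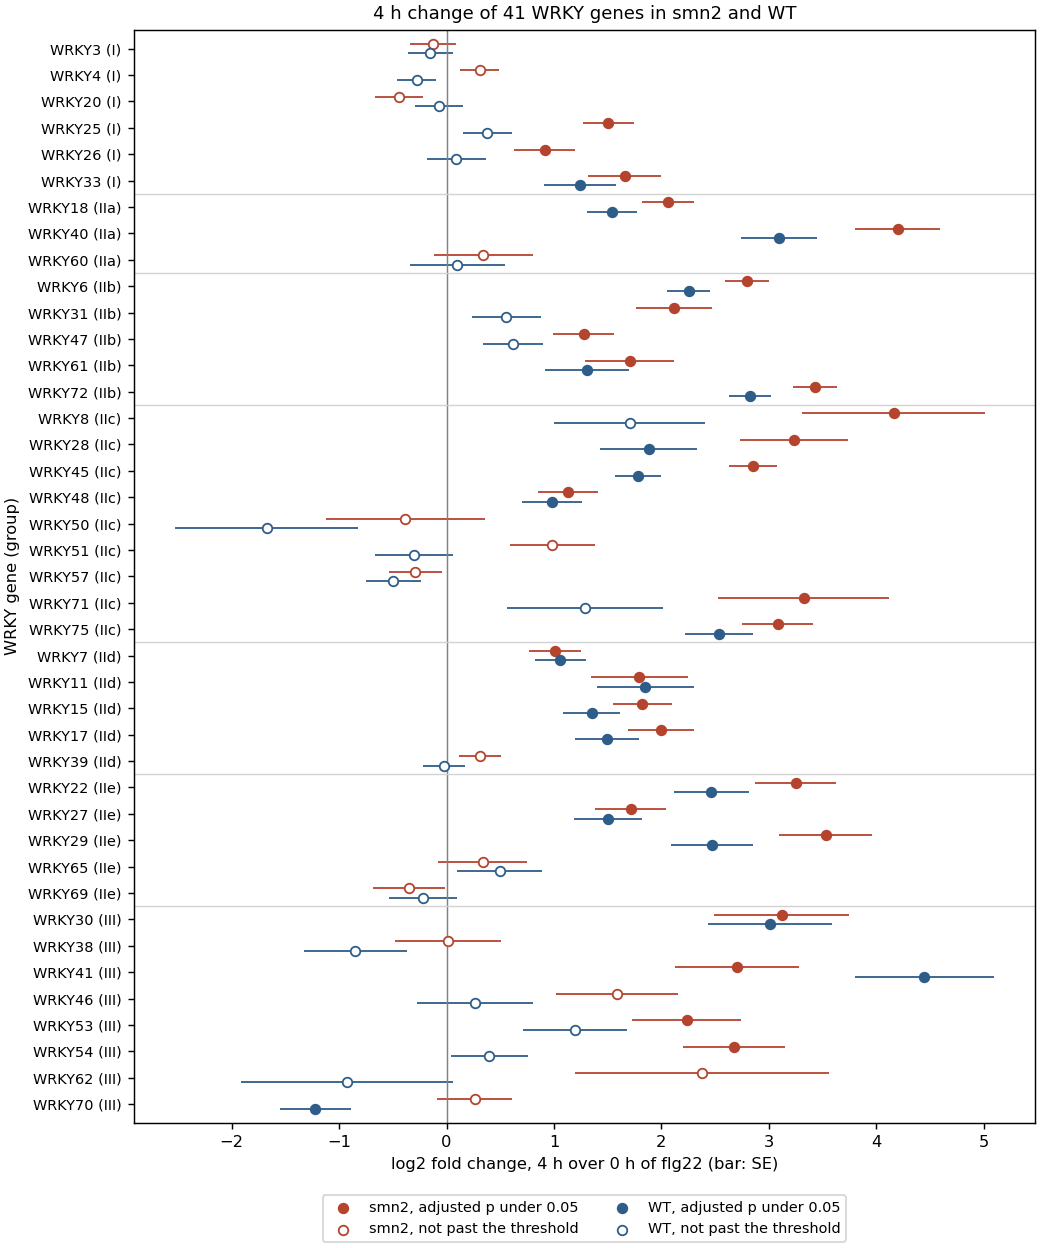
Log2 fold change of 41 WRKY genes, 4 h over 0 h, in smn2 (red, upper mark) and WT (blue, lower mark), with the standard error as a bar and filled circles for adjusted p under 0.05. In smn2 27 genes and in WT 19 genes are filled to the right of 0, and WRKY70 in WT is the only filled circle to the left.

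Levels per kilobase of exon allow genes to be set side by side. WRKY33 ranked first of the 43 in every group, with 111 ± 0.52 CPM per kb in smn2 at 4 h, 34.7 ± 12.2 in smn2 at 0 h, 97.5 ± 29.0 in WT at 4 h and 41.3 ± 14.5 in WT at 0 h (SD, n = 2 each). The next levels at 4 h in smn2 were WRKY45 with 98.9 ± 8.30, WRKY11 with 92.6 ± 6.15 and WRKY15 with 75.7 ± 14.9 CPM per kb. At 4 h in WT they were WRKY11 with 82.2 ± 22.7, WRKY15 with 71.8 ± 9.19 and WRKY40 with 58.2 ± 1.28 CPM per kb. Before treatment in WT, WRKY15 with 28.4 ± 7.85, WRKY70 with 24.8 ± 9.24 and WRKY11 with 22.8 ± 12.2 CPM per kb followed WRKY33. These neighbours lay within 1 SD of each other at 0 h, so their order there is not resolved. WRKY40 ranked 7 in smn2 at 4 h, 26 in smn2 at 0 h, 4 in WT at 4 h and 20 in WT at 0 h, whereas WRKY70 ranked 24 in smn2 at 4 h, 18 in smn2 at 0 h, 21 in WT at 4 h and 3 in WT at 0 h.

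**Figure D3:**
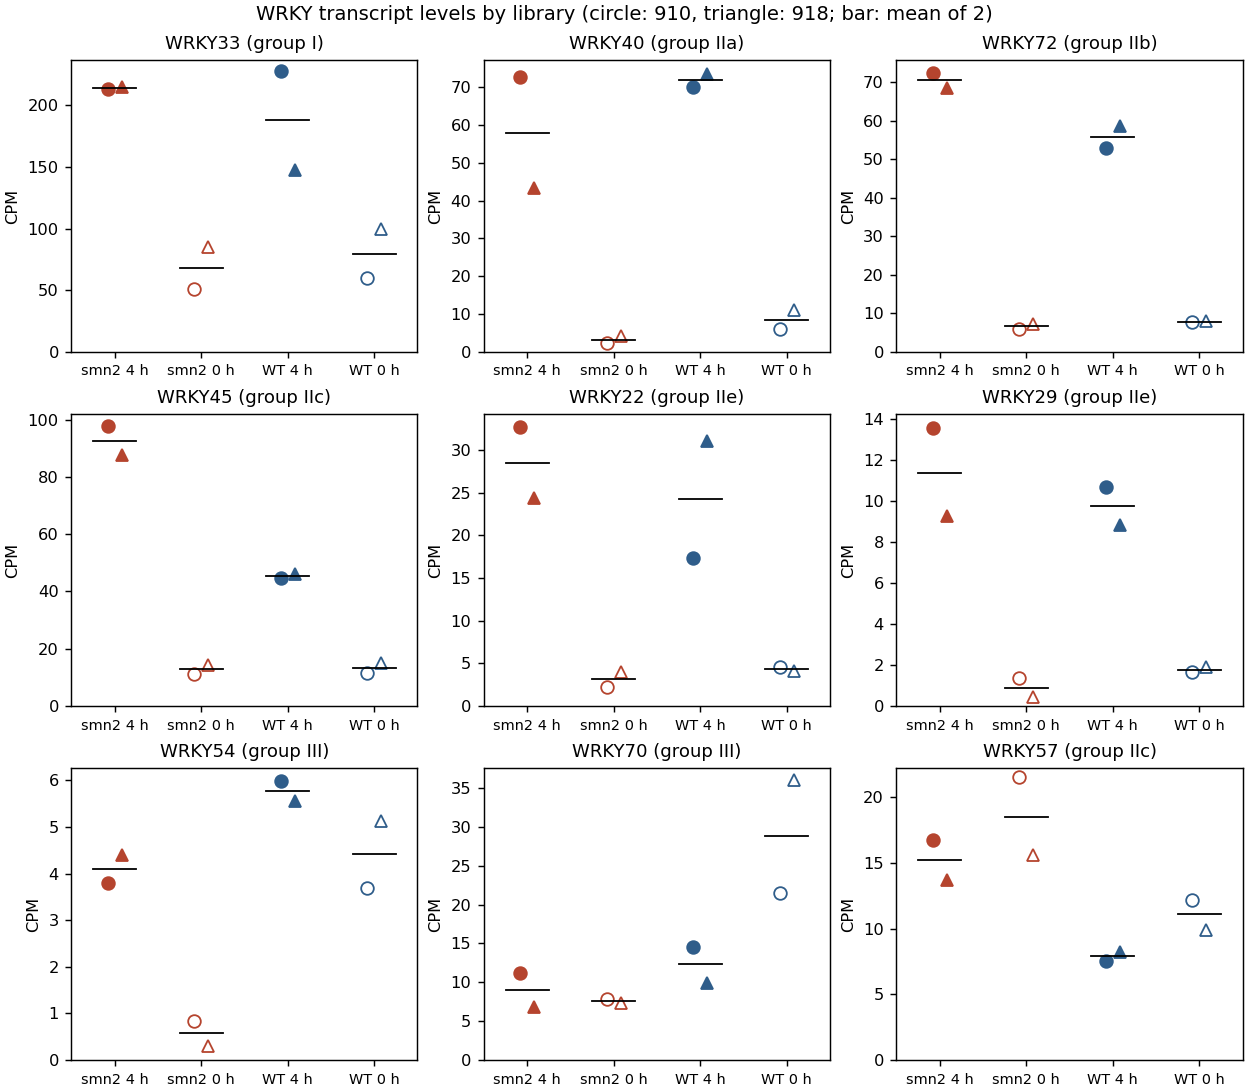
CPM of 9 WRKY genes in each library, by group (smn2 red, WT blue, 4 h filled, 0 h open, circles for replicate 910, triangles for 918, bars for the mean of 2). WRKY33, WRKY40, WRKY72, WRKY45, WRKY22 and WRKY29 are higher in all 4 h libraries than in all 0 h libraries; WRKY54 and WRKY70 are lower in both smn2 libraries at 0 h than in both WT libraries at 0 h, and WRKY57 is higher in smn2 at either time.

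In group I, WRKY33 rose in both genotypes, and WRKY25 and WRKY26, its close relatives, rose in smn2. WRKY33 (AT2G38470) is a substrate of MAP kinases and drives genes of the antimicrobial camalexin. It had 213 and 215 CPM in smn2 at 4 h, against 50.9 and 85.4 CPM in smn2 at 0 h. In WT it had 228 and 148 CPM at 4 h, against 59.8 and 99.6 CPM at 0 h. Every 4 h library was above every 0 h library, and within each time the genotypes overlapped. The log2 change was 1.66 ± 0.34 in smn2 (adjusted p = 0.00799) and 1.24 ± 0.33 in WT (adjusted p = 0.033). Within runs 910 and 918 it was 2.06 and 1.33 in smn2 and 1.92 and 0.57 in WT, on the log2(CPM + 0.5) scale. The WT call was lost without WT 0 h library 910 (0.92, adjusted p = 0.204), WT 4 h library 910 (0.88, 0.199), smn2 4 h library 910 (1.24, 0.0555) or smn2 4 h library 918 (1.24, 0.0557). WRKY25, a protein linked with MPK4 and heat tolerance, changed by 1.51 ± 0.24 in smn2 (adjusted p = 0.0023), against 0.38 ± 0.23 in WT (0.301). WRKY26, which acts in heat tolerance with both, changed by 0.91 ± 0.28 in smn2 (0.0442), against 0.09 ± 0.27 in WT (0.855). That call was lost without WT 4 h library 910 (adjusted p = 0.0657), WT 4 h library 918 (0.0617), smn2 0 h library 910 (0.226), smn2 4 h library 910 (0.179) or smn2 4 h library 918 (0.118), and at 0.0792 when the 4 smn2 libraries were fitted alone. WRKY3, WRKY4 and WRKY20 had log2 changes between -0.44 and 0.31 and passed in neither genotype.

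Group IIa holds 3 related repressors and partners, of which WRKY18 and WRKY40 rose and WRKY60 did not pass. WRKY40 (AT1G80840), which together with WRKY18 restrains basal immunity to powdery mildew, had 72.7 and 43.2 CPM in smn2 at 4 h, against 2.43 and 4.10 CPM in smn2 at 0 h. It had 70.1 and 73.6 CPM in WT at 4 h, against 6.12 and 11 CPM in WT at 0 h. The 4 h and 0 h libraries were far apart in both genotypes, and at 0 h both smn2 libraries lay under both WT libraries. Its log2 change was 4.20 ± 0.40 in smn2 (adjusted p = 0.000173) and 3.09 ± 0.35 in WT (0.000646). WRKY18 changed by 2.06 ± 0.24 in smn2 (0.000477) and 1.54 ± 0.24 in WT (0.0025). WRKY60 changed by 0.34 ± 0.46 in smn2 and 0.10 ± 0.44 in WT.

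In group IIb, all 5 tested members rose in smn2 and 3 of them in WT, beside 12.6% and 10.1% of all loci. WRKY72 (AT5G15130), which contributes to basal immunity in Arabidopsis and tomato, had 72.4 and 68.6 CPM in smn2 at 4 h, against 6.03 and 7.13 CPM in smn2 at 0 h. In WT it had 52.8 and 58.6 CPM at 4 h, against 7.73 and 8 CPM at 0 h. Its replicates were close in every group, and it had the lowest adjusted p of the family in both genotypes, with log2 changes of 3.43 ± 0.20 in smn2 (2.55e-05) and 2.82 ± 0.19 in WT (6.66e-05). WRKY6 (AT1G62300), a factor of senescence and phosphate supply, had 109 and 114 CPM in smn2 at 4 h, against 14.7 and 17.6 CPM in smn2 at 0 h. It had 106 and 95.5 CPM in WT at 4 h, against 19.1 and 23.3 CPM in WT at 0 h. The times did not overlap, and the log2 change was 2.80 ± 0.21 in smn2 (5.66e-05) and 2.25 ± 0.20 in WT (0.000251). WRKY61, the nearest relative of WRKY72, changed by 1.71 ± 0.42 in smn2 (adjusted p = 0.0176) and 1.3 ± 0.39 in WT (0.0492). In smn2 that call was lost without smn2 0 h library 910 (0.102) or smn2 4 h library 910 (0.154). In WT it was lost without WT 0 h library 910 (0.216), WT 0 h library 918 (0.134), WT 4 h library 910 (0.219), WT 4 h library 918 (0.105) or smn2 4 h library 910 (0.0557), and with DESeq2 (0.0857). WRKY31 changed by 2.12 ± 0.35 in smn2 (0.0028), against 0.55 ± 0.32 in WT (0.275). WRKY47 changed by 1.28 ± 0.28 in smn2 (0.0122), against 0.62 ± 0.28 in WT (0.168). The WRKY47 call in smn2 was lost without smn2 0 h library 918 (0.0589) or smn2 4 h library 918 (0.0735).

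In group IIc, 6 of 9 members rose in smn2 and 4 in WT, beside 12.6% and 10.1% of all loci. WRKY45 (AT3G01970), a regulator of phosphate uptake, had 97.6 and 87.8 CPM in smn2 at 4 h, against 11.3 and 14.4 CPM in smn2 at 0 h. It had 44.8 and 46.0 CPM in WT at 4 h, against 11.4 and 15.1 CPM in WT at 0 h. At 4 h both smn2 libraries were above both WT libraries, while at 0 h the genotypes overlapped. The log2 change was 2.86 ± 0.22 in smn2 (adjusted p = 6.54e-05) and 1.78 ± 0.22 in WT (0.000819). WRKY75 (AT5G13080), known from phosphate starvation and leaf senescence, had 45.0 and 50.1 CPM in smn2 at 4 h, against 3.69 and 7.89 CPM in smn2 at 0 h. It had 45.8 and 34.8 CPM in WT at 4 h, against 6.71 and 7.21 CPM in WT at 0 h. The genotypes overlapped at each time, and the log2 change was 3.08 ± 0.33 in smn2 (0.000311) and 2.54 ± 0.31 in WT (0.00095).

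WRKY28 (AT4G18170), described as an activator of the salicylic acid gene ICS1, had 11.6 and 10.2 CPM in smn2 at 4 h, against 1.01 and 1.37 CPM in smn2 at 0 h. It had 9.65 and 3.70 CPM in WT at 4 h, against 2.09 and 1.48 CPM in WT at 0 h. Its WT libraries at 4 h were far apart, and the log2 change was 3.23 ± 0.50 in smn2 (adjusted p = 0.00191) and 1.88 ± 0.45 in WT (0.0201). The WT call was lost without WT 0 h library 910 (2.18, adjusted p = 0.0736), WT 0 h library 918 (1.69, 0.0923) or WT 4 h library 910 (1, 0.189). WRKY8 (AT5G46350), which acts with a VQ protein in salt tolerance, had 8.37 and 8.94 CPM in smn2 at 4 h, against 0 and 1.21 CPM in smn2 at 0 h. It had 5.66 and 2.78 CPM in WT at 4 h, against 1.23 and 1.38 CPM in WT at 0 h. The smn2 0 h libraries held 0 and 8 reads of it, so the log2 change of 4.16 ± 0.85 in smn2 (0.00787) rests on a denominator of 1 library; without that library no size can be given. In WT it changed by 1.71 ± 0.70 (0.132), a value that passed without smn2 0 h library 910 (0.0194) or 918 (0.0206), when the WT libraries were fitted alone (0.0404) and without the low-count filter (0.00223).

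WRKY71 (AT1G29860), a regulator of shoot branching, was low throughout, with 1.3 and 4.55 CPM in smn2 at 4 h, against 0.251 and 0.303 CPM in smn2 at 0 h. It had 1.15 and 1.32 CPM in WT at 4 h, against 0.430 and 0.593 CPM in WT at 0 h. The log2 change was 3.33 ± 0.80 in smn2 (adjusted p = 0.0167) and 1.29 ± 0.72 in WT (0.262). The smn2 call was lost without smn2 0 h library 910 (3.17, 0.0942), smn2 0 h library 918 (3.43, 0.0535) or smn2 4 h library 918 (2.22, 0.137). WRKY48, a negative regulator of defence against Pseudomonas, changed by 1.13 ± 0.28 in smn2 (0.0198) and 0.98 ± 0.28 in WT (0.0402). The smn2 call of WRKY48 was lost without smn2 0 h library 918 (0.0898), smn2 4 h library 910 (0.0761) or smn2 4 h library 918 (0.0903). Its WT call was lost without either WT 0 h library (0.113 without 910, 0.17 without 918), either WT 4 h library (0.2 without 910, 0.0778 without 918) or either smn2 4 h library (0.064 without 910, 0.065 without 918), with DESeq2 (0.0948), with exon reads alone (0.0582) and with the WT libraries alone (0.0652). WRKY50, WRKY51 and WRKY57 passed in neither genotype.

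In group IId, whose proteins bind calmodulin, WRKY7, WRKY11, WRKY15 and WRKY17 rose in both genotypes and WRKY39 passed in neither. WRKY7, WRKY11 and WRKY17 are known as negative regulators of resistance to Pseudomonas. The log2 change of WRKY17 was 1.99 ± 0.31 in smn2 (adjusted p = 0.00191) and 1.5 ± 0.30 in WT (0.00873), and that of WRKY15 was 1.82 ± 0.28 in smn2 (0.00173) and 1.35 ± 0.27 in WT (0.00897). WRKY11 changed by 1.80 ± 0.45 in smn2 (0.0208) and 1.85 ± 0.45 in WT (0.0221), and WRKY7 by 1.01 ± 0.24 in smn2 (0.0155) and 1.06 ± 0.24 in WT (0.0156). The 0 h libraries of WRKY11 differed by replicate, with 19.1 and 47.9 CPM in smn2 and 17.9 and 38.9 CPM in WT, the 918 library being the higher in both. In smn2 the calls of WRKY7 and WRKY11 were lost without smn2 0 h library 910 (0.0913 and 0.0765), smn2 4 h library 910 (0.0559 and 0.0861) or smn2 4 h library 918 (0.0862 and 0.0704). In WT they were lost without WT 0 h library 910 (0.124 and 0.133), WT 4 h library 910 (0.0615 and 0.0516) or WT 4 h library 918 (0.0851 and 0.124). The WT call of WRKY15 was lost without WT 0 h library 910 (0.0789) or WT 4 h library 910 (0.0631), and that of WRKY17 without WT 0 h library 918 (0.0513) or WT 4 h library 910 (0.0559).

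In group IIe, WRKY22, WRKY27 and WRKY29 rose in both genotypes, while WRKY65 and WRKY69 passed in neither. WRKY22 and WRKY29 are the factors first placed at the end of the flg22 MAP kinase cascade. WRKY22 (AT4G01250) had 32.7 and 24.4 CPM in smn2 at 4 h, against 2.26 and 3.94 CPM in smn2 at 0 h. It had 17.4 and 31.1 CPM in WT at 4 h, against 4.56 and 4.15 CPM in WT at 0 h. Both smn2 libraries at 0 h were under both WT libraries, the genotypes overlapped at 4 h, and the log2 change was 3.25 ± 0.38 in smn2 (adjusted p = 0.000454) and 2.46 ± 0.35 in WT (0.00182). WRKY29 (AT4G23550) had 13.6 and 9.26 CPM in smn2 at 4 h, against 1.34 and 0.455 CPM in smn2 at 0 h. It had 10.7 and 8.86 CPM in WT at 4 h, against 1.66 and 1.88 CPM in WT at 0 h. The same order of libraries was seen as for WRKY22, with log2 changes of 3.53 ± 0.43 in smn2 (0.000575) and 2.47 ± 0.38 in WT (0.00265). WRKY27, related to WRKY22 and linked with bacterial wilt symptoms, changed by 1.71 ± 0.33 in smn2 (0.00583) and 1.5 ± 0.32 in WT (0.0115). Its WT call was lost without WT 0 h library 910 (0.0502), WT 0 h library 918 (0.0665) or WT 4 h library 910 (0.0903).

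Group III showed opposite directions within WT, where WRKY30 and WRKY41 rose and WRKY70 fell. WRKY41 (AT4G11070) had 5.11 and 4.88 CPM in smn2 at 4 h, against 0.754 and 0.759 CPM in smn2 at 0 h. It had 5.66 and 4.50 CPM in WT at 4 h, against 0.0537 and 0.494 CPM in WT at 0 h. The genotypes overlapped at 4 h, and the WT 0 h libraries held 1 and 5 reads, so the largest log2 change of the family in WT, 4.45 ± 0.65 (adjusted p = 0.00198), has a small denominator. In smn2 it changed by 2.70 ± 0.58 (0.00981), a call lost without smn2 4 h library 910 (0.0524). WRKY30 (AT5G24110), which responds to oxidative stress, had 5.11 and 3.25 CPM in smn2 at 4 h, against 0.587 and 0.303 CPM in smn2 at 0 h. It had 5.98 and 2.91 CPM in WT at 4 h, against 0.376 and 0.790 CPM in WT at 0 h. The genotypes overlapped at each time, and the log2 change was 3.12 ± 0.63 in smn2 (0.0075) and 3.01 ± 0.58 in WT (0.00763). Its smn2 call was lost without smn2 4 h library 910 (0.0587), and its WT call without WT 0 h library 910 (0.0776) or WT 4 h library 910 (0.0707).

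WRKY53, a promoter of leaf senescence, changed by 2.23 ± 0.51 in smn2 (adjusted p = 0.0129) and by 1.2 ± 0.48 in WT (0.123). The smn2 call was lost without smn2 0 h library 910 (0.0573) or smn2 4 h library 910 (0.0634). In WT it passed without WT 0 h library 918 (2.12, adjusted p = 0.0225), with the replicate number as a block (1.32, 0.0472) and without the low-count filter (1.19, 0.000231); its 0 h libraries held 5.85 CPM for 910 and 16.8 CPM for 918. WRKY38 and WRKY62, a pair that limits basal defence, and WRKY46 passed in neither genotype. Their log2 changes were 0.01 ± 0.49, 2.38 ± 1.18 and 1.59 ± 0.57 in smn2, against -0.85 ± 0.48, -0.93 ± 0.99 and 0.26 ± 0.54 in WT. Without the low-count filter WRKY46 passed in smn2 (adjusted p = 0.0156).

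WRKY70 and WRKY54, a related pair of factors in salicylic acid signalling and senescence, were the members that differed between genotypes at 0 h. WRKY54 (AT2G40750) had 3.80 and 4.39 CPM in smn2 at 4 h, 0.838 and 0.303 CPM in smn2 at 0 h, 5.98 and 5.56 CPM in WT seedlings at 4 h and 3.70 and 5.14 CPM in WT at 0 h. The smn2 libraries at 0 h stood under all other libraries, while at 4 h the smn2 libraries were near, and still under, the WT ones. At 0 h the log2 difference, smn2 over WT, was -2.78 ± 0.46 (adjusted p = 0.0245). WRKY70 (AT3G56400) had 11.2 and 6.83 CPM in smn2 at 4 h, 7.88 and 7.28 CPM in smn2 at 0 h, 14.6 and 9.92 CPM in WT seedlings at 4 h and 21.5 and 36.1 CPM in WT at 0 h. Here the WT libraries at 0 h stood above all others, and the genotypes overlapped at 4 h. The difference at 0 h was -1.92 ± 0.34 (0.0346). These 2 lower members of 41, with none higher, stand beside 0.27% of all loci lower and 0.733% higher at 0 h. DESeq2 gave adjusted p-values of 0.00139 for WRKY54 and 0.000192 for WRKY70. Within runs 910 and 918 the difference, on the log2(CPM + 0.5) scale, was -1.65 and -2.81 for WRKY54 and -1.39 and -2.24 for WRKY70.

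Both calls at 0 h were near the threshold and moved with single libraries. WRKY54 lost its call without WT 0 h library 910 (-3.01, adjusted p = 0.0607), WT 0 h library 918 (-2.54, 0.147), WT 4 h library 910 (-2.80, 0.0573), WT 4 h library 918 (-2.78, 0.057) or smn2 0 h library 918 (-2.37, 0.0831), and with the 0 h libraries alone (-2.77, 0.165). WRKY70 lost it without WT 0 h library 918 (-1.5, 0.223), WT 4 h library 910 (-1.93, 0.0573), WT 4 h library 918 (-1.92, 0.0571), smn2 0 h library 910 (-1.98, 0.0978) or smn2 0 h library 918 (-1.86, 0.122), and with the 0 h libraries alone (-1.90, 0.115). After 4 h, WRKY54 rose in smn2 by 2.68 ± 0.47 (0.00388) and had a change of 0.40 ± 0.36 in WT (0.499). WRKY70 had a change of 0.26 ± 0.35 in smn2 (0.646) and fell by 1.22 on the log2 scale in WT (SE 0.33, adjusted p = 0.0333). That WT call was lost without WT 0 h library 918 (-0.81, 0.193), WT 4 h library 910 (-1.55, 0.0646) or WT 4 h library 918 (-0.97, 0.198). WRKY54 lies at chr2:17000454-17002468 and WRKY70 at chr3:20908928-20910481 in the authors' TAIR10 table, and neither overlaps another annotated locus. WRKY55, the neighbour of WRKY54 on chromosome 2, was below the filter.

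Across the 41 tested members, levels at 0 h leaned lower in smn2, and levels at 4 h leaned higher. Outside these members, 13 other loci with a WRKY symbol were tested. Their median log2 difference, smn2 over WT, was -0.02 at 0 h and 0.01 at 4 h. The lean therefore holds for the chosen members and was not seen in those medians. At 0 h the log2 difference, smn2 over WT, was below 0 for 33 of 41 members, against 52.5% of all loci, with a median of -0.31 against -0.02 over all loci. Both smn2 libraries were below both WT libraries for 16 members and above them for 3, against 20% and 18.6% of all loci. At an unadjusted p under 0.05 there were 7 members of 41, beside 2008 of 19649 loci. These were WRKY25, WRKY31, WRKY40, WRKY51, WRKY54 and WRKY70 below 0 and WRKY57 above it. WRKY40 had a difference of -1.41 ± 0.39 (adjusted p = 0.192 in edgeR, 0.0388 in DESeq2), WRKY51 of -1.21 ± 0.38 (0.261), WRKY31 of -1.11 ± 0.35 (0.261) and WRKY25 of -1.01 ± 0.24 (0.113). Without the low-count filter WRKY40 (0.000149) and WRKY25 (0.00321) passed. Over all loci that setting called 435 higher and 438 lower at 0 h, against 144 and 53 with the filter. WRKY51 and WRKY50 are known from the repression of jasmonate responses. Members of a family are not independent samples, so these counts describe 4 libraries.

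At 4 h no member passed the test between genotypes with edgeR, beside 0.28% of all loci higher and 0.0305% lower in smn2. The difference was above 0 for 31 of 41 members, against 49% of all loci, with a median of 0.23 against -0.01. Both smn2 libraries were above both WT libraries for 16 members and below them for 2, against 20.1% and 19.4% of all loci. At an unadjusted p under 0.05 there were 2 members of 41, beside 1560 of 19649 loci. WRKY45 had a difference of 1.03 ± 0.21 with a 95% interval of 0.57 to 1.49 (adjusted p = 0.108 in edgeR, 0.0318 in DESeq2, 0.0035 in edgeR without the low-count filter). WRKY57 had 0.95 ± 0.26 with an interval of 0.37 to 1.53 (0.292 in edgeR, 0.347 in DESeq2). Over all loci 339 were higher and 141 lower at 4 h without the low-count filter, against 55 and 6 with it. The interval for WRKY33 was -0.55 to 0.93, that for WRKY40 -1.02 to 0.41 and that for WRKY72 -0.05 to 0.73, so differences of those sizes at 4 h cannot be told from 0 with these libraries.

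**Figure D4:**
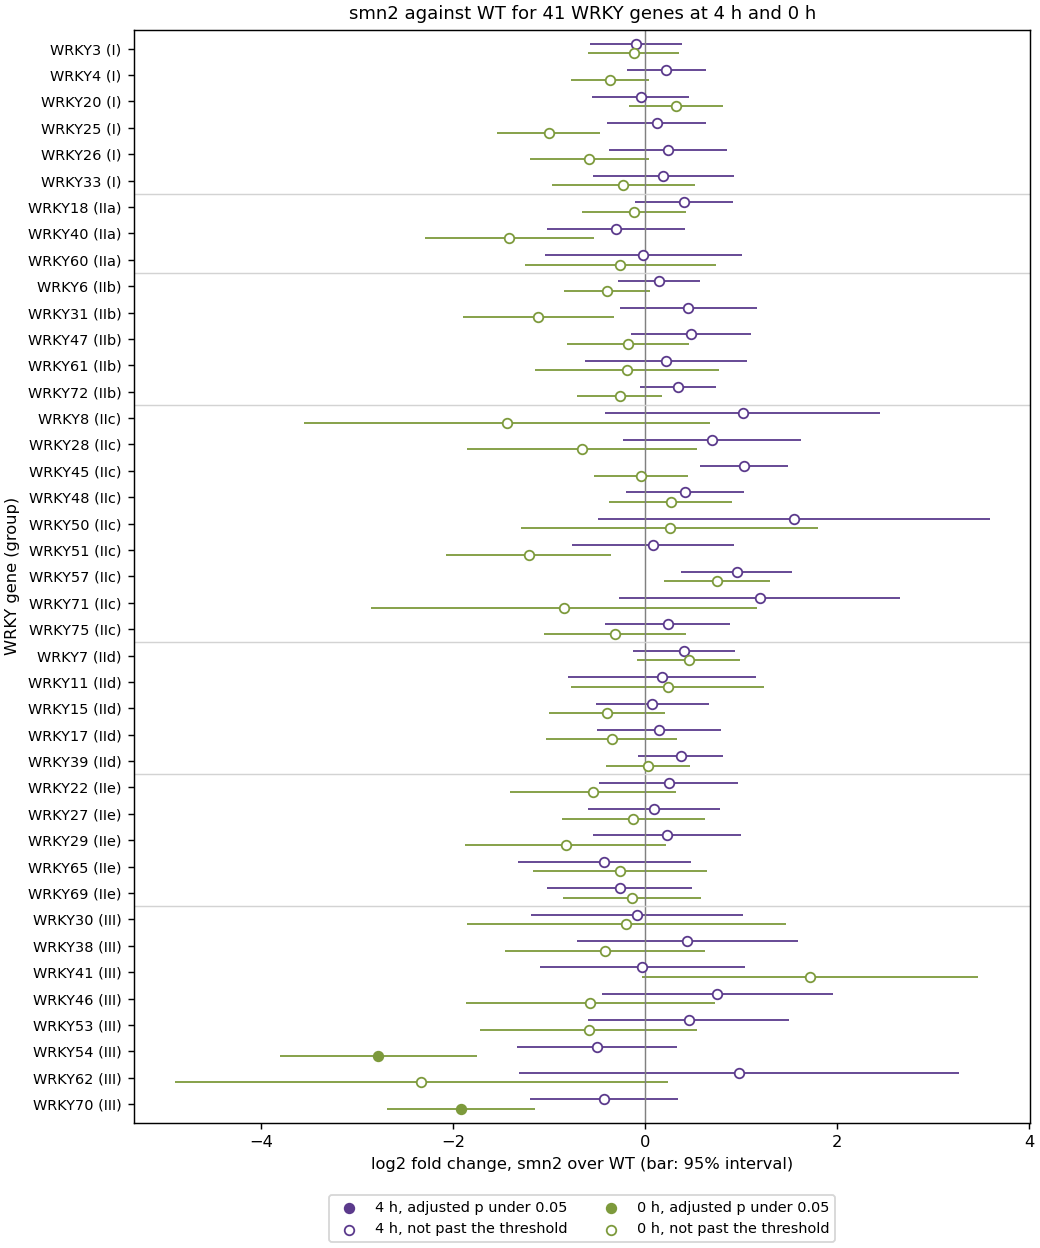
Log2 difference of 41 WRKY genes, smn2 over WT, at 4 h (purple, upper mark) and at 0 h (green, lower mark), with 95% intervals as bars and filled circles for adjusted p under 0.05. The filled circles are WRKY54 and WRKY70 at 0 h; 33 of the 0 h values lie below 0 and 31 of the 4 h values above it.

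Whether the 4 h change itself differed between genotypes was tested as an interaction. No member passed with edgeR or DESeq2, and 0% of all loci passed with edgeR in either direction. The change was larger in smn2 for 35 of 41 members, with a median difference of 0.58 on the log2 scale, against 49.6% of all loci and a median of 0.00. Since a low level at 0 h enters both, this count is not separate from that of the 0 h difference. The 13 other tested loci with a WRKY symbol had a median difference of -0.12. At an unadjusted p under 0.05 there were 8 members of 41, beside 847 of 19649 loci. These were WRKY4, WRKY25, WRKY31, WRKY45, WRKY51, WRKY54, WRKY70 and WRKY72, all with the larger change in smn2. WRKY54 differed by 2.28 ± 0.60 (adjusted p = 0.821), WRKY31 by 1.56 ± 0.47 (0.884), WRKY70 by 1.48 ± 0.48 (1, or 0.0446 without the low-count filter), WRKY25 by 1.13 ± 0.33 (0.853) and WRKY45 by 1.07 ± 0.30 (0.847). WRKY41 went the other way, with -1.74 ± 0.91. Over all loci 148 passed above 0 and 37 below 0 without the low-count filter, against 0 in either direction with it.

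Averaged over both times, WRKY57 was higher in smn2 and WRKY54 and WRKY70 were lower, beside 1.44% of all loci higher and 0.361% lower. WRKY57 (AT1G69310), a factor of drought tolerance and of the jasmonate and auxin control of senescence, had 16.7 and 13.7 CPM in smn2 at 4 h, against 7.55 and 8.20 CPM in WT at 4 h. It had 21.5 and 15.6 CPM in smn2 at 0 h, against 12.2 and 9.88 CPM in WT at 0 h. All 4 smn2 libraries were above all 4 WT libraries. The mean log2 difference was 0.85 ± 0.18 for WRKY57 (adjusted p = 0.0487), -1.64 ± 0.30 for WRKY54 (0.024) and -1.17 ± 0.24 for WRKY70 (0.0442). WRKY40, at -0.86 ± 0.25 (0.169), passed without the low-count filter (0.00043). Over all loci that setting called 666 higher and 489 lower, against 282 and 71 with the filter. The WRKY57 call was lost with exon reads alone (0.069) and without any single library except smn2 0 h library 918: the adjusted p was 0.177 without smn2 4 h library 910, 0.104 without smn2 4 h library 918, 0.115 without smn2 0 h library 910, 0.17 without WT 4 h library 910, 0.157 without WT 4 h library 918, 0.0869 without WT 0 h library 910 and 0.175 without WT 0 h library 918. WRKY54 lost it without smn2 4 h library 910 (0.0988), smn2 4 h library 918 (0.0838), WT 4 h library 910 (0.0914), WT 4 h library 918 (0.0838) or WT 0 h library 918 (0.0881). WRKY70 lost it without any single library except WT 0 h library 910: the adjusted p was 0.0697 without smn2 4 h library 910, 0.172 without smn2 4 h library 918, 0.0726 without smn2 0 h library 910, 0.086 without smn2 0 h library 918, 0.161 without WT 4 h library 910, 0.0789 without WT 4 h library 918 and 0.138 without WT 0 h library 918.

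Because the mutated helicase acts in nuclear RNA decay, the share of reads in introns was a second readout of the same loci. The ratio of intron to exon reads could be tested for 25 members. These had at least 20 intron reads over the 8 libraries and exon reads past the low-count filter. WRKY50, with 31 intron reads, was left out for its low exon counts. Between smn2 and WT none passed, beside 0.857% of 9681 loci with a higher and 0.0207% with a lower ratio in smn2. The median log2 difference was 0.36 for the 25 and 0.23 for all loci. An unadjusted p under 0.05 was reached by 2 of the 25 members, beside 888 of the 9681 loci. WRKY18 had intron shares of 2.35% and 6.25% in smn2 at 4 h, 3.06% and 7.32% in smn2 at 0 h, 3.74% and 1.57% in WT at 4 h and 1.38% and 0.952% in WT at 0 h. Its smn2 and WT libraries overlapped at 4 h, and the difference was 1.28 ± 0.62 (adjusted p = 0.523). WRKY33 had intron shares of 1.58% and 1.81% in smn2 at 4 h, 2.80% and 3.55% in smn2 at 0 h, 1.56% and 0.984% in WT at 4 h and 1.26% and 1.68% in WT at 0 h. The smn2 libraries were above the WT libraries at each time by a small margin at 4 h, and the difference was 0.76 ± 0.37 (0.542). Among the 25, WRKY57 had the highest shares, 23.5% in smn2 at 4 h, 15.3% in smn2 at 0 h, 20.9% in WT at 4 h and 17.1% in WT at 0 h with both libraries summed. WRKY50 and WRKY55, which were not tested, had higher shares in some groups, on 69 and 26 gene reads in all. Between 4 h and 0 h none of the 25 passed either, beside 0.0723% of loci with a higher and 0.114% with a lower ratio at 4 h. None was at an unadjusted p under 0.05, beside 785 of the 9681 loci. DESeq2 was not run on these ratios.

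**Figure D5:**
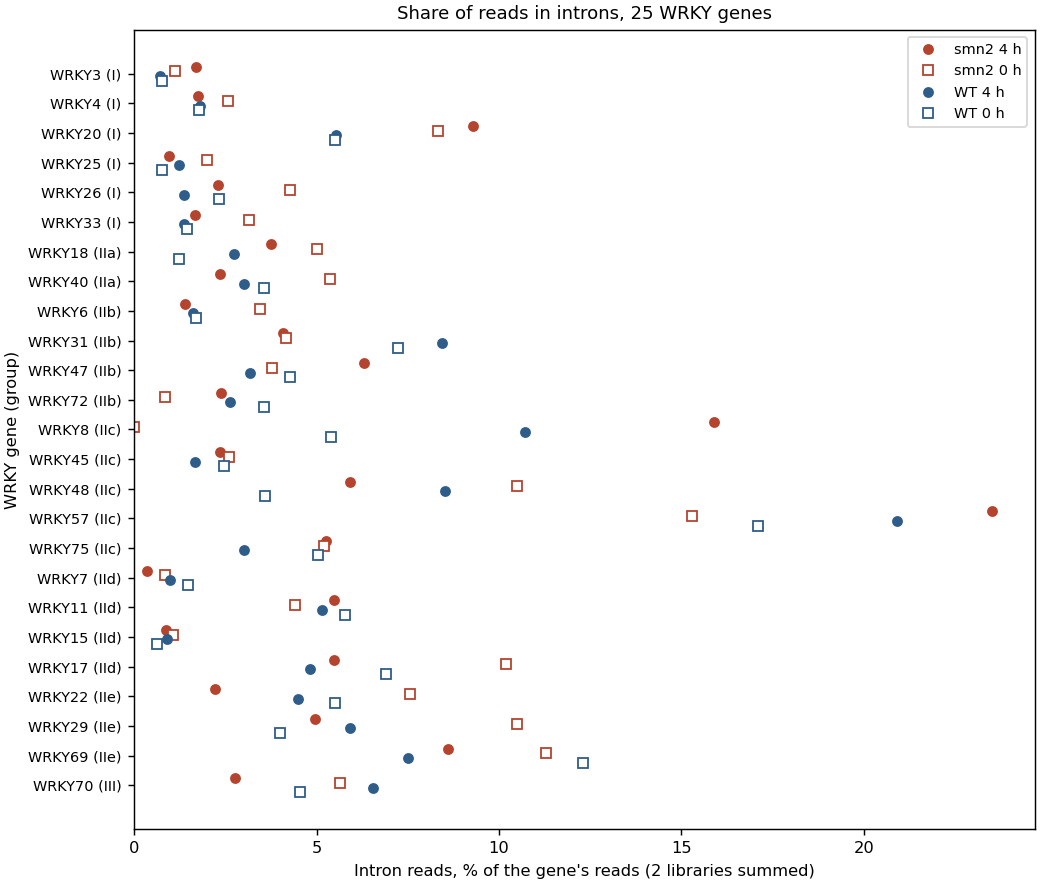
Intron reads as a percentage of all reads of the gene, with both libraries of a group summed (smn2 red, WT blue, 4 h filled circles, 0 h open squares). The 25 WRKY genes shown have at least 20 intron reads and exon reads past the low-count filter. Among them WRKY57 has the highest shares, between 15.3% and 23.5%, and most other genes stay under 10% in all groups.

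Genes that act with the family were taken as fixed lists. Of 30 VQ genes, 23 were tested. In smn2 at 4 h 11 rose and 1 fell, beside 12.6% and 8.88% of all loci. In WT 9 rose, beside 10.1% of all loci. The median log2 changes were 1.42 in smn2 and 1.24 in WT. SIB1, a VQ partner of WRKY33, had 19.4 and 6.01 CPM in smn2 at 4 h, against 2.85 and 5.77 CPM in smn2 at 0 h. It had 25.3 and 27.4 CPM in WT at 4 h, against 5.10 and 10.4 CPM in WT at 0 h, and rose in WT by 1.79 ± 0.52 (adjusted p = 0.0434), without passing in smn2. MKS1, a VQ protein between MPK4 and WRKY33, rose in smn2 by 1.45 ± 0.37 (0.0216) without passing in WT. For neither did the difference between genotypes in the 4 h change pass. CAMBP25, a calmodulin-binding VQ protein, was higher in smn2 at 0 h, with 9.39 and 6.52 CPM in smn2 and 1.29 and 1.68 CPM in WT (2.46 ± 0.44, 0.0346).

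Of 9 MAP kinase cascade genes, MPK11, MKK4 and MPK4 rose in both genotypes, beside 12.6% of all loci that rose in smn2 and 10.1% in WT. MPK11, a flg22-activated kinase close to MPK4, had 10.6 and 8.94 CPM in smn2 at 4 h, against 0.754 and 0.607 CPM in smn2 at 0 h. It had 14.3 and 15.1 CPM in WT at 4 h, against 2.90 and 5.23 CPM in WT at 0 h. Both smn2 libraries were under both WT libraries at each time, and at 0 h the log2 difference, smn2 over WT, was -2.49 ± 0.42 (adjusted p = 0.0271). MPK4 rose by 1.66 ± 0.26 in smn2 (0.00226) and 1.31 ± 0.26 in WT (0.00837), and MKK4 by 1.02 ± 0.30 in smn2 (0.0361) and 1.28 ± 0.29 in WT (0.0167).

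Of 12 genes described as bound or regulated by WRKY factors, 8 rose in smn2 and 7 in WT, beside 12.6% and 10.1% of all loci. Their median log2 changes were 3.59 in smn2 and 1.91 in WT. FRK1, the receptor kinase gene used as a flg22 marker, had 335 and 154 CPM in smn2 at 4 h, against 0.419 and 0.303 CPM in smn2 at 0 h. It had 198 and 139 CPM in WT at 4 h, against 1.40 and 1.78 CPM in WT at 0 h. The 4 h libraries were far above the 0 h libraries in both genotypes, and at 0 h both smn2 libraries were under both WT libraries. PAD3, the last enzyme of camalexin synthesis and a target of WRKY33, had 386 and 262 CPM in smn2 at 4 h, against 3.69 and 14.4 CPM in smn2 at 0 h. It had 265 and 171 CPM in WT at 4 h, against 9.34 and 8.59 CPM in WT at 0 h, with log2 changes of 5.22 ± 0.57 in smn2 (adjusted p = 0.000335) and 4.60 ± 0.55 in WT (0.000785). ACS6, an ethylene synthesis enzyme, rose by 1.98 ± 0.34 in smn2 (0.00314) and 1.87 ± 0.33 in WT (0.00515). ALD1, an enzyme of pipecolic acid synthesis, was lower in smn2 averaged over both times (-3.20 ± 0.63, 0.0369), with 0.109 and 0 CPM in smn2 at 4 h, 0.335 and 0.759 CPM in smn2 at 0 h, 1.47 and 0.529 CPM in WT seedlings at 4 h and 2.90 and 3.56 CPM in WT at 0 h. Another 24 loci of the table carry a WRKY symbol in the reference and are not among the 43. Of 13 tested, 2 rose in smn2, beside 12.6% of all loci. In WT 2 of the 13 rose and 1 fell, beside 10.1% and 6.56% of all loci.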

How the data were processed

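Poly(A) RNA of whole seedlings was sequenced on an Ion Proton, per the labels' protocols and the file headers. The deposited table holds raw read counts per locus for genes, exons and introns, as total and as uniquely placed reads; the authors did not normalize these counts, per the file headers, and 104 of its 152 columns of per-library values were not used as measurements. The build was TAIR10, per the submitters' processing notes. Which aligner, annotation and strand setting were used is not given in the sources used here, so reads of the 8 members that overlap another annotated locus (WRKY4, WRKY29, WRKY33, WRKY40, WRKY41, WRKY53, WRKY61 and WRKY69) may be shared with it. Uniquely placed reads were 92.5% of all reads for WRKY53 and at least 98.6% for each other member. Starts were shifted to count from 1. WRKY groups follow the standard classification by number and were not checked against protein sequence.

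Tests on the total gene counts used edgeR's quasi-likelihood method (version 4.0.16 under R 4.3.3), TMM scaling, a low-count filter (10 counts, about 1.09 CPM) and Benjamini-Hochberg adjustment over 19649 loci. One model was fitted to the 8 libraries together, with the 4 groups as coefficients and a threshold of 0.05. CPM values use TMM-scaled totals; levels per kb use exon reads and exon length. A ± after a log2 value is a standard error. The intron test set intron against exon counts within each library. Depths were 6856882 to 15791296 gene reads, and limits from counts cover counting error only. The p-values measure the spread between libraries that the labels call biological replicates. Alternatives were DESeq2 1.42.0, its size factors in edgeR, no filter, exon reads alone, uniquely placed reads, only the 4 libraries compared, at least 50 intron reads, leaving out each library, and the replicate number as a block. The numbers 910 and 918 mark separate sequencing runs (175 and 176), per the file headers, so they pair the libraries by run; deviations from the group means correlated at 0.048 to 0.452 between groups.

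Named genes were each member past the test in any comparison, 5 members named in advance (WRKY33, WRKY40, WRKY54, WRKY70 and WRKY72) and those under the filter, with all values for those 5, for members called between genotypes and for the 12 with the largest 4 h changes. The members and lists were chosen with earlier results of these data known. W-boxes were searched in the 300 bases before RefSeq gene starts. The code was tested on simulated data.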

Additional observations from a re-analysis of the deposited data

How the results depend on the processing

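With 2 libraries per group, single libraries moved many calls. Leaving out each library in turn gave 19 to 27 members higher in smn2 at 4 h (27 with all), 9 to 20 higher in WT (19) and 0 to 1 lower in WT (1). Between genotypes it gave 0 to 2 lower at 0 h (2), and 0 to 1 higher and 0 to 2 lower averaged over both times (1 and 2). With the 4 libraries compared alone, 0 members were lower at 0 h. Without the low-count filter 4 were lower at 0 h (WRKY25 and WRKY40 added), 1 was higher at 4 h (WRKY45) and 1 passed in the difference of the 4 h changes (WRKY70); WRKY53 (adjusted p = 0.000231) and WRKY8 (0.00223) then also passed in WT at 4 h, WRKY46 (0.0156) in smn2 at 4 h and WRKY40 (0.00043, lower) averaged over both times. DESeq2 also gave 1 higher between genotypes at 4 h, and 17 higher for the 4 h change in WT (19 with edgeR). Exon reads alone gave 0 higher averaged over both times. The replicate block added WRKY53 in WT and changed no other call among the members. No value reversed. Of the values of called members under the alternatives, 678 kept their call and 99 lost it, mostly with a library left out; the cause was not tested. Over all loci, the counts between genotypes depended most on the method. At 0 h they were 144 higher and 53 lower, against 241 and 122 with DESeq2, 435 and 438 with no filter, 16 and 0 with the 4 libraries alone, and 224 and 89 with the block. At 4 h they were 55 and 6, against 140 and 19, 339 and 141, 81 and 10, and 108 and 8. Averaged over both times they were 282 and 71, against 394 and 144 with DESeq2, 666 and 489 with no filter and 388 and 126 with the block. The interaction called 0, against 27 and 3 with DESeq2 and 148 and 37 with no filter, and 847 loci had an unadjusted p under 0.05. Members under about 1 CPM at 0 h rest on few reads.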
